A study of Mus musculus with 31 samples.

Results

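The genes described here are 9 genes known as markers or working genes of the somatic cells of the testis: 6 of Sertoli cells (Vim, Sox9, Amh, Wt1, Gata4 and Inha) and 3 of Leydig cells (Cyp11a1, Cyp17a1 and Star). They were chosen by name, out of 21887 protein-coding genes placed by a RefSeq gene table of GRCm38.p6, whose primary assembly is that of mm10. The study mapped meiotic DNA breaks in testis by DMC1 SSDS, which isolates and sequences the single-stranded DNA that the recombinase DMC1 coats at resected break ends. Each of 26 genotypes has 1 library and 1 list of hotspots, places where breaks recur, called by the authors. The lists are 1 Prdm9 knockout (B6;129P2-Prdm9<tm1Ymat>/J, named Prdm9-/-), 19 F1 crosses, and 6 inbred strains. The strains are PWD/PhJ (PWD), MOLF/EiJ (MOL), CAST/EiJ (CAST), B10.F-H2pb1/(13R)J (13R), C3H/HeJ (C3H) and C57Bl/6J (B6). A cross is named by its mother (f) and father (m), so C3HfXB6m had a C3H mother and a B6 father. No source used here gives ages, numbers of animals or pooling. According to the series text a library was wrongly labelled as a CAST by 13R cross. The sample it names carries the label CAST in the samples used here. The number of inbred hotspots at the 9 genes and the test of which hotspots follow a parent are therefore also given without CAST. Other values include it.

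A hotspot was assigned to a gene when its centre lay inside the gene or within 5000 bp of either end. Its strength is given as a percentile within its own list, with 100 the strongest, because the deposited score has no stated scale. How deeply each library was sequenced is unknown. The lists held 30929 hotspots in the knockout, 10445 to 19084 in the F1 crosses and 14539 to 19528 in the inbred strains. With 1 library per genotype, no value here has a replicate error, and a difference between any pair of lists has no replicate check.

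Sertoli cells nurse the germ cells inside the seminiferous tubules, and Leydig cells between the tubules make testosterone. Neither cell type enters meiosis, so the breaks mapped at their genes are breaks made in germ cells. In mice, the histone methyltransferase PRDM9 binds DNA through zinc fingers that differ between strains, and marks most places where breaks form. Without PRDM9, breaks form largely at promoters and other sites that carry the same histone mark for other reasons. Genes of somatic cells are therefore a contrast to genes that are active in germ cells. The libraries hold DNA, and expression was not measured.

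The promoter sequences of 3 of the 9 genes (Vim, Cyp11a1 and Inha) were in the RefSeq promoter table of GRCm38.p6. A hotspot covered the whole promoter window, from 250 bases before the transcription start to 50 bases from it onward, at Vim and at the upstream start of Cyp11a1, in the knockout list only. They are printed because, of the windows that the table holds for the 9 genes, a knockout hotspot covered these. Knockout hotspots also covered the low-coordinate ends of Sox9 and Wt1, whose promoters were not in the table. Capitals mark matches, on either strand, to short motifs that transcription factors are known to bind. The TATA box was searched with the letters TATAAA and the CCAAT box by those that name it. The GC box, bound by factors such as SP1, was searched as GGGCGG. The core of many nuclear receptor sites was searched as AGGTCA. The site of GATA factors was searched as AGATAA. A match is a match of letters only.
Vim promoter, chr2:13574061-13574360, plus strand: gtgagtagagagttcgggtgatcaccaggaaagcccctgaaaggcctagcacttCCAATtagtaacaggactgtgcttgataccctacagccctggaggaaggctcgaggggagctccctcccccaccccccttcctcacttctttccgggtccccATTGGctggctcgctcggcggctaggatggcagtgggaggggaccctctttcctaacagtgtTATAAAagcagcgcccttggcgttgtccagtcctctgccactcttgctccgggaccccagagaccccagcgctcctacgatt
Cyp11a1 promoter, chr9:57997774-57998073, plus strand: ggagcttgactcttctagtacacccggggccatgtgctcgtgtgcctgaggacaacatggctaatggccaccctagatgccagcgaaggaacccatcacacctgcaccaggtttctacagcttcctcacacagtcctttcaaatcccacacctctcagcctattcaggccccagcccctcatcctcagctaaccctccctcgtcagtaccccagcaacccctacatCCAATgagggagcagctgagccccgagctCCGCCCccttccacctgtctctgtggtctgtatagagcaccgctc

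The Vim window held a TATA box at -32 from the start site and CCAAT boxes at -196 and, on the opposite strand, at -94. The Cyp11a1 window held a CCAAT box at -24 and a GC box, on the opposite strand, at position 5, with the start site as position 0. Neither window held a nuclear receptor site or a GATA site. Of 21255 promoter windows of protein-coding genes, 12.6% held a TATA box, 38.2% a CCAAT box, 46.2% a GC box, 14.7% a nuclear receptor site and 9.65% a GATA site. CpG pairs (CG), which a GC box also contains, numbered 11 in the Vim window and 7 in that of Cyp11a1, against 5 at Inha and 1 at the downstream start of Cyp11a1, which no hotspot covered. The median was 21 CpG in the 11360 windows touched by a knockout hotspot (quartiles 14 and 29) and 4 in the 9895 others (quartiles 2 and 8). The CpG counts of Vim and Cyp11a1 thus lay below the lower quartile of touched promoters.

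Across the 26 lists the 9 genes divided sharply. Sox9 had a hotspot in 14 lists, Wt1 in 12 and Gata4 in 5, while Cyp11a1 had one in 2 lists, and Vim and Cyp17a1 in 1 each. Amh, Inha and Star had none in any list. Of all protein-coding genes, 18.4% likewise had none. The knockout list reached 5 of the 9 genes, the F1 lists together 3 and the inbred lists together 5. The same counts over all protein-coding genes were 66.2% in the knockout, 61.7% in at least 1 F1 list and 63.9% in at least 1 inbred list. The 9 genes are short, at a median of 7509 bp against 17169 bp for all protein-coding genes, and a short gene offers a smaller window.

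**Figure D1:**
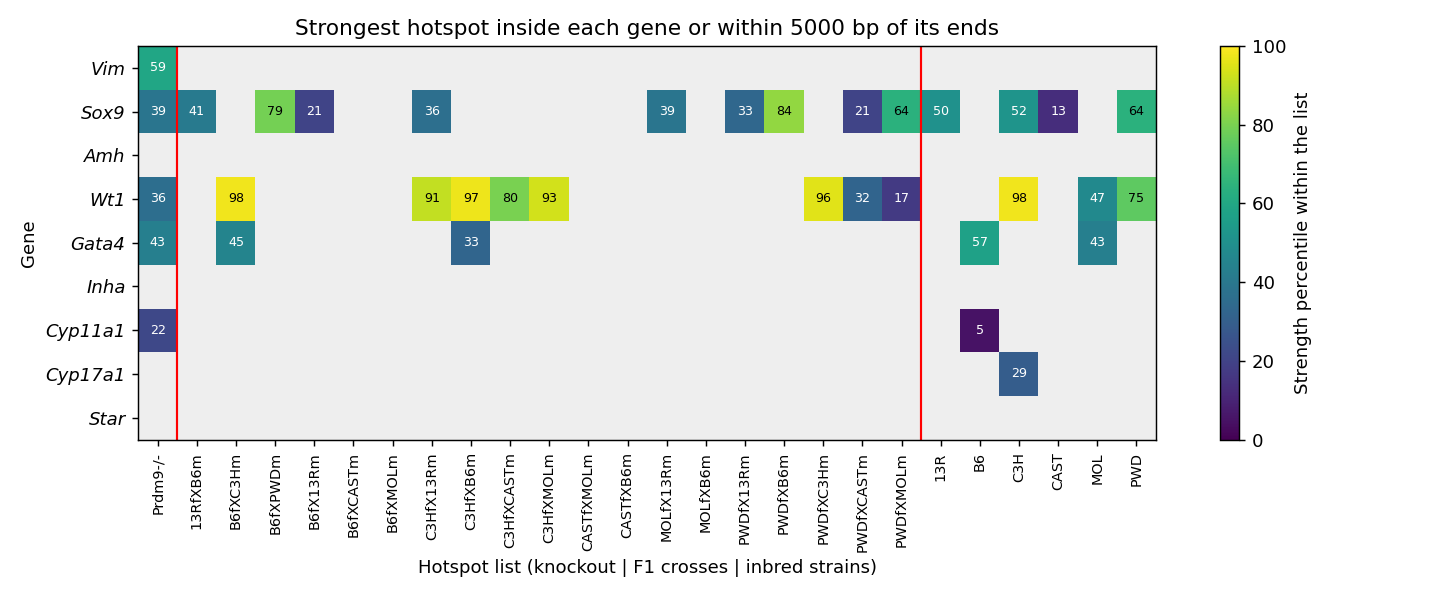
Strength percentile of the strongest hotspot inside each gene or within 5000 bp of its ends, for the 9 genes (rows) in the 26 hotspot lists (columns: knockout, F1 crosses and inbred strains, divided by red lines). Grey cells had no hotspot; Sox9 and Wt1 fill 14 and 12 cells, and Amh, Inha and Star fill none.

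The knockout addresses where breaks form without PRDM9. In that list 4 of the 6 Sertoli cell genes and 1 of the 3 Leydig cell genes had a hotspot. At Vim, which encodes the intermediate filament vimentin, the knockout hotspot lay on chromosome 2 from 13572971 to 13576676, with its centre 512.5 bp inside the gene from the start. Its percentile of 59.0 (rank 12682) was the highest among the 9 genes. No F1 or inbred list had a hotspot at Vim. At Sox9, the transcription factor that drives Sertoli cell fate, the knockout hotspot ran for 5780 bp on chromosome 11 (112781590 to 112787369). It began before the low-coordinate end and spanned most of the gene, and 98.8% of knockout hotspots were no wider. Its percentile was 39.1.

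Wt1, a zinc-finger transcription factor of the gonad and kidney, had 3 knockout hotspots on chromosome 2. The first, centred 592.5 bp inside the gene from its low-coordinate end, had a percentile of 36.2. The end of Wt1os, a long noncoding RNA gene annotated beside Wt1, lies 19 bp from that end of Wt1. The other hotspots were centred 6820.5 and 17596.5 bp into the gene, at percentiles 3.31 and 34.1. Gata4, a GATA transcription factor of Sertoli and Leydig cells, had 5 knockout hotspots on chromosome 14, centred between 42064.5 and 69722.5 bp from its low-coordinate end. Their percentiles lay between 19.4 and 43.0. None had its centre within 1000 bp of an annotated end of Gata4, and the nearest lay 3075.5 bp away. Only the outer ends of the gene were used. Transcription starts inside Gata4, whose promoters were not in the promoter table, were not examined.

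Wt1 and Gata4 together held 8 of the 11 knockout hotspots at the 9 genes. They were singled out after their values were seen. They are also the longest of the 9, at 47086 and 72799 bp. Of all protein-coding genes, 9.21% had 3 or more knockout hotspots and 2.37% had 5 or more. Per length of window, the 9 genes held 40.4 knockout hotspots per Mb, against 19.5 over all protein-coding genes. The value was 50.1 for the 6 Sertoli cell genes and 13.8 for the 3 Leydig cell genes. Without Wt1 and Gata4, a comparison chosen after the values were seen, the other 7 genes held 22.7 per Mb.

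Cyp11a1, the side-chain cleavage enzyme that begins steroid synthesis from cholesterol, was the only Leydig cell gene with a knockout hotspot. It lay on chromosome 9 from 57997377 to 57998382, centred 144.5 bp outside the gene at its upstream start. It was narrow, at 1006 bp, and weak, at percentile 21.6 (rank 24231). Cyp17a1, the enzyme that makes androgen precursors, and Star, which carries cholesterol into mitochondria, had no knockout hotspot.

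Within 1000 bp of a gene end, the knockout list had a hotspot centre at 3 of the 9 genes (Vim, Wt1 and Cyp11a1), against 51% of all protein-coding genes. The B6 list had one at 0 of the 9, against 3.72%. The knockout hotspot of Sox9 covered the low-coordinate end of the gene, but its centre lay 2269.5 bp from that end. With any overlap of the interval counted, the knockout reached 4 of the 9. The share over all genes was not computed that way. Of the 11 knockout hotspots at the 9 genes, 3 lay within 1000 bp of a gene end, against 33.5% of the whole knockout list. These shares are not alike, because the whole list includes hotspots outside every gene window and the 11 were taken from gene windows. None of the 11 was among the strongest 5000 of the 30929 hotspots in the knockout list. Counted by gene, 0 of the 9 had such a strong hotspot in the window, against 22.5% of protein-coding genes. Only 1 of the 11 lay less than 400 bp from a hotspot of any F1 or inbred list, the third of Wt1, 109 bp from a MOL hotspot of percentile 8.57. For the whole knockout list that share was 7.02%.

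Amh, the hormone by which Sertoli cells remove the female ducts, Inha, the alpha subunit of inhibin, Cyp17a1 and Star lacked knockout hotspots, so the nearest ones were located. In each case the nearest knockout hotspot lay close to an end of another protein-coding gene. For Inha it was 11171.5 bp away and 8.5 bp from an end of Stk11ip, at percentile 60.03. For Amh it was 18626.5 bp away and 350.5 bp from an end of Oaz1, which encodes an inhibitor of polyamine synthesis, at percentile 8.65. For Cyp17a1 it was 17127.5 bp away and 221.5 bp from an end of Borcs7, at percentile 26.8. For Star it was 22897.5 bp away and 258.5 bp from the far end of Lsm1, an mRNA decay gene, at percentile 87.6. This comparison was chosen after the values were seen. Of the 7394 protein-coding genes with no knockout hotspot in their window, 45.2% likewise had their nearest one within 1000 bp of another coding gene's end.

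Germ cell genes were set beside the somatic genes by counts, with no test between lists. A knockout hotspot lay in the window of 5 of the 9 genes and within 1000 bp of an end of 3. Of 48 genes of meiotic prophase, 46 (95.8%) had a knockout hotspot in the window and 41 (85.4%) within 1000 bp of an end. A hotspot among the strongest 5000 lay at 0 of the 9 somatic genes, against 30 of these 48 (62.5%), 5 of 18 spermatogonial genes (27.8%) and 5 of 32 spermatid genes (15.6%). Over all protein-coding genes that share was 22.5%, near the spermatogonial value. The strongest of the meiotic genes were at Mybl1, which encodes a regulator of pachytene genes, at rank 19, Syce1 of the synaptonemal complex, at rank 332, and Terb1, a telomere tether, at rank 381. Of 18 spermatogonial genes 15 (83.3%) had a knockout hotspot in the window and 13 (72.2%) at an end, and of 32 spermatid genes 18 (56.3%) and 13 (40.6%). Over all protein-coding genes the shares were 66.2% in the window and 51% at an end. Spermatid genes thus lay below the share of all genes in each of these counts, and meiotic prophase genes stood furthest above it. The median percentile of the strongest hotspot, among genes that had one, was 39.1 for the 9 somatic genes, against 88.8 for meiotic prophase, 69.2 for spermatogonial and 63.6 for spermatid genes. The somatic median rests on 5 genes. The lists also differed in gene length, with a median of 7509 bp for the 9 genes, against 39885 bp for meiotic prophase, 17368.5 bp for spermatogonial and 10811.5 bp for spermatid genes. Per Mb of window the order was another, with 40.4 knockout hotspots for the 9 genes, against 22.1 for meiotic prophase, 22.7 for spermatogonial and 19.1 for spermatid genes. The window share of the 9 genes was thus close to that of spermatid genes and below that of the other germ cell lists, while their density was above all of these. Wt1 and Gata4, however, held 8 of the 11 hotspots behind that density. Without them, a comparison chosen after the values were seen, the other 7 genes held 22.7 per Mb, close to the meiotic prophase and spermatogonial values.

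Further somatic genes differed from the 9 in several of these counts. Of 20 other Sertoli cell genes, 15 (75%) had a knockout hotspot in the window and 7 (35%) at an end, with the strongest at Cldn11, a tight junction gene, at rank 1266. Of 14 other Leydig cell genes 9 (64.3%) had one in the window and 5 (35.7%) at an end, with the strongest at Fdx1, an electron donor of steroid synthesis, at rank 1917. A hotspot among the strongest 5000 lay at 3 of these Sertoli cell genes (15%) and 2 of these Leydig cell genes (14.3%), close to the share of spermatid genes. The median percentile of the strongest hotspot was 43.6 in this Sertoli list and 59.99 in this Leydig list. The 0 of 9 among the strongest 5000 was thus not shared by the further somatic lists, but these counts are small and the difference was not tested. Over all protein-coding genes the share was 22.5%. Median gene length was 21649 bp in this Sertoli list and 29761.5 bp in this Leydig list, so their windows were longer than those of the 9. Per Mb of window they held 19.7 and 21.8 knockout hotspots, against 19.5 over all protein-coding genes. The higher density of the 9 genes was thus not shared by these lists either. The share at ends, taken over a fixed distance, was between 33.3% and 35.7% in all 3 somatic lists, against 51% of all protein-coding genes. A share below 51% was not particular to somatic genes, since spermatid genes had 40.6%. In the B6 list the window counts were 2 of 9 for the somatic genes, 16 of 48 (33.3%) for meiotic prophase and 30.6% of all protein-coding genes.

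**Figure D2:**
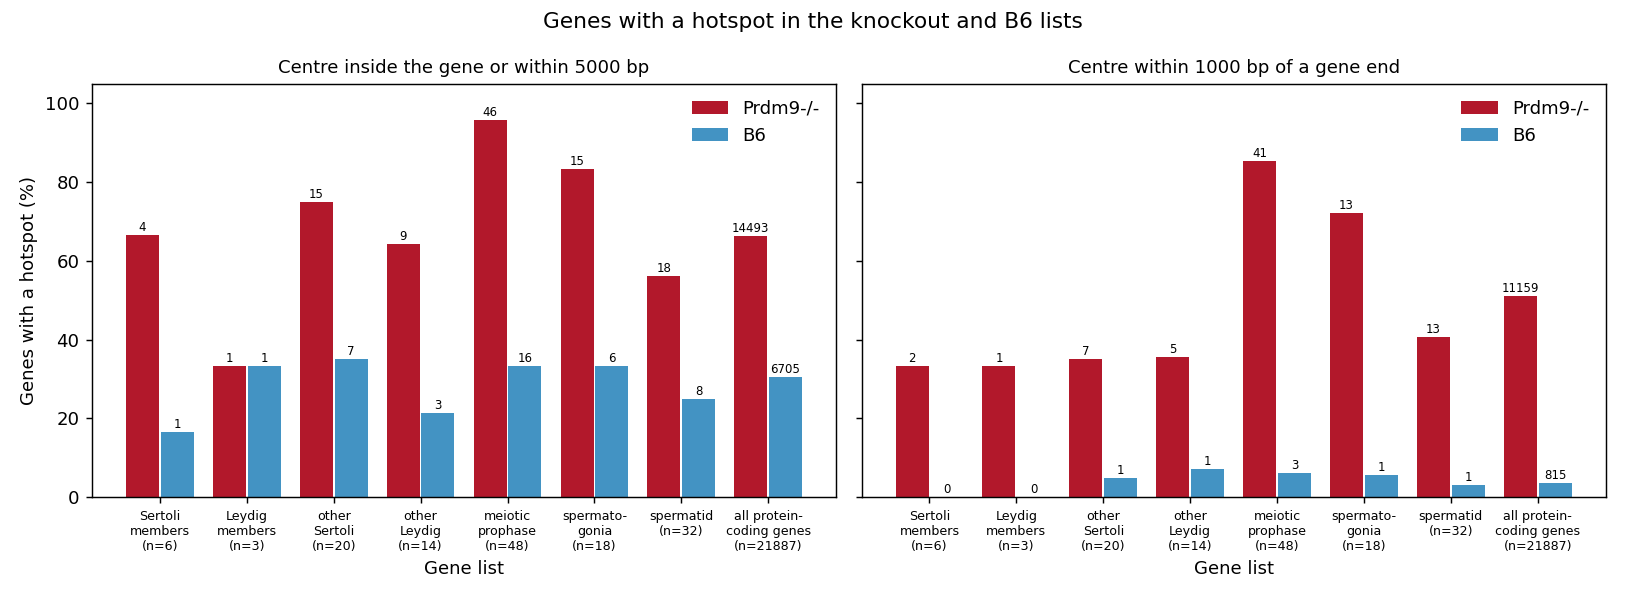
Share of genes with a hotspot (vertical axis, %) in the knockout (red) and B6 (blue) lists, by gene list, with the centre inside the gene or within 5000 bp (left) or within 1000 bp of an end (right); numbers on the bars count genes. At gene ends in the knockout, both sets of the 9 somatic genes reach 33.3% and meiotic prophase genes 85.4%.

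Where PRDM9 is present, the 19 F1 lists held 22 hotspots at the 9 genes and the 6 inbred lists 13. Without the CAST list, the inbred lists held 12. All 22 in the crosses lay at Sox9, Wt1 or Gata4. An F1 list reached between 0 and 2 of the 9 genes, with a median of 1, and an inbred list between 1 and 3, with a median of 2. Over all protein-coding genes, an F1 list reached between 20.003% and 31.8% and an inbred list between 24.8% and 30.6%. C3H was the strain with the most, at 3 of 9 genes against 24.8% of protein-coding genes. The lists with none were B6fXCASTm, B6fXMOLm, CASTfXMOLm, CASTfXB6m and MOLfXB6m, which are all the crosses among B6, CAST and MOL. Per Mb of window and list, the 9 genes held 4.26 hotspots in the F1 crosses and 7.96 in the inbred strains, against 7.54 and 7.62 over all protein-coding genes.

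Sox9 carried hotspots on both flanks and, in the F1 and inbred lists, none inside the gene. Beyond the high-coordinate end lay a 13R hotspot (chromosome 11, 112789619 to 112791786), centred 2945.5 bp from the gene at percentile 50.5. All 5 crosses with a 13R parent had it and none of the 14 others did. Its percentile was 41.1 in 13RfXB6m, 20.6 in B6fX13Rm, 36.5 in C3HfX13Rm, 38.8 in MOLfX13Rm and 23.4 in PWDfX13Rm. A percentile depends on list length: the rank was 7871 of 13361 hotspots in 13RfXB6m and 8292 of 10445 in B6fX13Rm. The percentile was thus lower in each of these crosses than in 13R. C3H also had a hotspot there at percentile 52.0, centred 391 bp from that of 13R. Neither cross of C3H with B6 had a hotspot there, and of the 6 crosses with a C3H parent only C3HfX13Rm did.

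Before the low-coordinate end of Sox9 lay a PWD hotspot (112778026 to 112781013), centred 2690.5 bp from the gene at percentile 63.9. It was found in 5 of the 6 crosses with a PWD parent, all but PWDfXC3Hm, and in none of the 13 others. Its percentile was 83.7 in PWDfXB6m, 79.1 in B6fXPWDm, 63.7 in PWDfXMOLm, 33.3 in PWDfX13Rm and 20.6 in PWDfXCASTm. The crosses with B6 were highest, above PWD itself, and the cross with CAST was lowest. CAST had a hotspot centred 20 bp from that of PWD, at percentile 13.0. Of the 5 crosses with a CAST parent, only PWDfXCASTm had a hotspot there. PWDfX13Rm was the only list with hotspots on both flanks of Sox9.

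**Figure D3:**
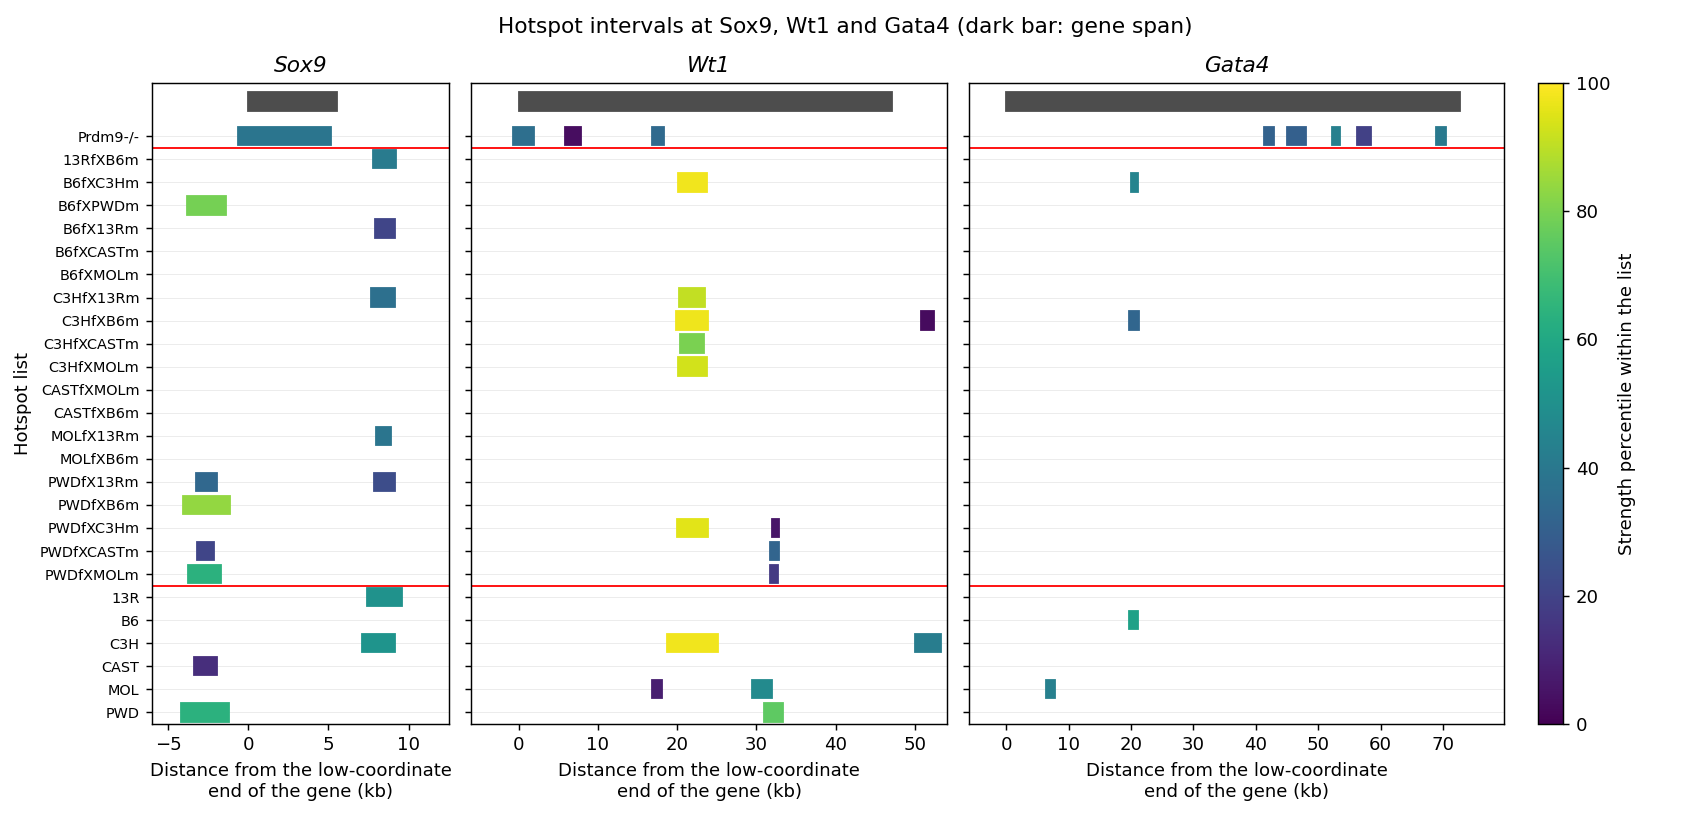
Hotspot intervals at Sox9, Wt1 and Gata4 in the 26 lists (rows: knockout at the top, F1 crosses, inbred strains at the bottom), placed by distance in kb from the low-coordinate end of the gene (dark bar) and coloured by strength percentile within the list. The C3H hotspot inside Wt1 recurs at the same place in the 6 crosses with a C3H parent, and the 5 knockout hotspots of Gata4 lie apart from those of the other lists.

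Wt1 held the strongest hotspot found at any of the 9 genes. In C3H it lay inside the gene on chromosome 2 (105145226 to 105151655), at percentile 97.9 (rank 315), and measured 6430 bp. All 6 crosses with a C3H parent had it and none of the 13 others did. Its percentile was 98.0 in B6fXC3Hm, 97.3 in C3HfXB6m, 95.6 in PWDfXC3Hm, 93.2 in C3HfXMOLm, 90.6 in C3HfX13Rm and 80.0 in C3HfXCASTm. It was thus strong in all 7 lists, and lowest in the cross with CAST. Its centre varied between 21882.5 and 21919.5 bp from the low-coordinate end over these 7 lists.

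Weaker hotspots of Wt1 were inherited less regularly. A PWD hotspot (105157538 to 105159945), at percentile 75.1, was found in 3 of the 6 crosses with a PWD parent, at 5.58 in PWDfXC3Hm, 16.9 in PWDfXMOLm and 32.2 in PWDfXCASTm. All 3 crosses had it far lower than PWD, and the crosses with B6 (both directions) and with 13R lacked it. A second C3H hotspot, centred 4595.5 bp beyond the high-coordinate end at percentile 42.1, was found in C3HfXB6m alone, at 2.77. MOL had hotspots inside Wt1 at percentiles 8.57 and 47.3. None of the 6 crosses with a MOL parent had a hotspot centred less than 400 bp from either. The one at 47.3 was centred 1465 bp from the PWD hotspot. With any overlap of the intervals counted, it was met in 1 of 6 crosses with a MOL parent and 2 of 13 others.

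At Gata4, B6 had a hotspot on chromosome 14 (63218640 to 63220095) at percentile 57.3. It was found in 2 of the 10 crosses with a B6 parent, at 32.6 in C3HfXB6m and 45.2 in B6fXC3Hm. MOL had a hotspot in Gata4 at percentile 43.1 that was in no cross. At Cyp11a1 a weak B6 hotspot of percentile 4.74 lay 2531.5 bp outside the upstream start, and at Cyp17a1 a C3H hotspot of percentile 29.5 lay 538.5 bp outside the high-coordinate end. Neither was found in any cross.

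To ask which hotspots follow a parent, the presence of each inbred hotspot was compared between crosses with that strain as a parent and the other crosses. The test, a two-sided Fisher's exact test over the 19 crosses, was run on all 88090 autosomal inbred hotspots with Benjamini-Hochberg adjustment over them. Of the 13 inbred hotspots at the 9 genes, 3 passed in the direction of the parent, against 35.2% of all. These were the C3H hotspot inside Wt1 (6 of 6 crosses against 0 of 13, Fisher's exact test, adjusted p = 0.000433), the 13R hotspot of Sox9 (5 of 5 against 0 of 14, exact test, adjusted p = 0.000433) and the PWD hotspot of Sox9 (5 of 6 against 0 of 13, exact test, adjusted p = 0.00211). The PWD hotspot of Wt1 (3 of 6 against 0 of 13) had an adjusted p of 0.0538 by the same exact test. Without PWDfXB6m, a cross with a PWD parent that lacked the hotspot, the exact test gave 0.0364. In every other setting it stayed above 0.05. Examples by the same exact test are 0.0794 with 1 list per reciprocal pair, 0.191 with centres less than 200 bp apart and 0.245 without CAST and its crosses. With the strongest 50% of each list only the C3H hotspot of Wt1 passed, because many hotspots of the other places lie below that limit in the crosses (13R place of Sox9, 0 of 5 crosses with the parent, adjusted p = 1; PWD place of Sox9, 3 of 6, adjusted p = 0.0576; both exact tests). The test treats the crosses as independent, although many have a parent in common. The 3 places also passed without the CAST list and its crosses.

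Divided at the median of each list, strength in the parent and presence in the crosses went together here as in the whole lists. Of the 7 inbred hotspots at the 9 genes below the median of their list, 0 passed and 5 were in no cross of their strain, against 11.1% passing and 49.4% in no cross among all such hotspots. Of the 6 at or above the median, 3 passed and 0 were in no cross, against 59.2% and 6.22%. Among these 6, strength did not order presence. The PWD hotspot of Wt1, at percentile 75.1, was in 3 of 6 crosses, and the 13R hotspot of Sox9, at 50.5, in 5 of 5. All 22 hotspots of the crosses at the 9 genes lay less than 400 bp from a hotspot of the mother's or father's strain. Over all autosomal hotspots of the crosses, 18.5% lay at neither parent.

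**Figure D4:**
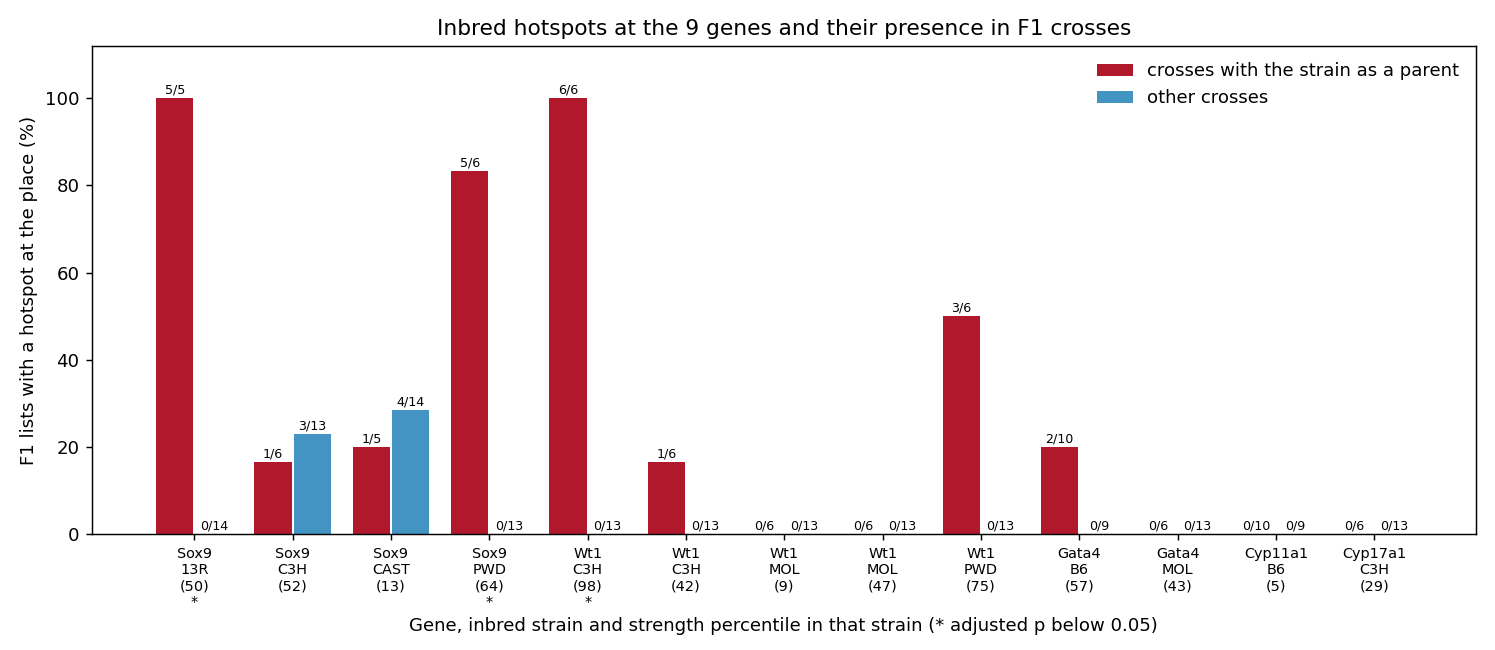
Share of F1 lists (vertical axis, %) with a hotspot at the place of each of the 13 inbred hotspots of the 9 genes, in crosses with that strain as a parent (red) and in the other crosses (blue); the horizontal axis gives gene, strain and percentile in that strain, and asterisks mark an adjusted p below 0.05. The marked places reach 5 of 5, 5 of 6 and 6 of 6 crosses with the parent and 0 of the others.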

How the data were processed

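DMC1 SSDS libraries of testis gave 1 hotspot list per genotype, and the 5 input samples were not used. CASAVA 1.8, MACS2 2.0.10 and the mm10 build are named, with no role, per the submitters' processing notes. The deposited score of each hotspot, made by the authors, has an unstated definition; 104 of 414683 values lie below 0, so it was used only as a rank or percentile within a list. No source used here states filters or pooling. The files were read as BED intervals, and coordinates are printed counting from 1. Depth is unknown, and 1 library per genotype gives no replicate error.

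Genes came from RefSeq GRCm38.p6. Hotspots shared a place when their centres lay less than 400 bp apart. Fisher's exact tests were run with scipy 1.17.1 in Python 3.11.15 at a threshold of 0.05, and the code was tested on simulated data. All 9 genes and every hotspot of theirs are named; other lists give up to 3 examples, those with the strongest knockout hotspots. The genes, lists and tests were chosen with earlier results of these data known. Alternatives covered the window, the overlap rule, list strength, PWDfXB6m, the CAST libraries and reciprocal crosses.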

Additional observations from a re-analysis of the deposited data

How the results depend on the processing

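Of 50 recomputed counts, 30 stayed within 1.5 times the reported value and 20 did not. With windows of 1000 or 2500 bp, inbred lists reached 3 of the 9 genes, with 7 hotspots, and F1 lists held 11. With 10000 bp, F1 lists reached 6 genes. In the strongest 50% of each list the knockout reached 1 gene, also 1 at a gene end, inbred lists 3 with 6 hotspots, F1 lists held 9 hotspots, and 1 place passed as following a parent. In the strongest 5000 the knockout reached 0 genes and 0 at gene ends, inbred lists 1 with 2 hotspots, F1 lists held 8, and meiotic prophase genes numbered 30. At 500 bp from an end, the knockout reached 1 gene. Fewer hotspots enter the stricter settings by construction. The 3 places that followed a parent passed with centres less than 200 or 800 bp apart, with any overlap, without PWDfXB6m, and with the longer list of each reciprocal pair. They also passed without CAST and its crosses. Unknown depth limits what a missing hotspot shows: a place absent from a list may lie below its threshold. No paired analysis was possible because each genotype has 1 library.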

Other observations

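Several of the 9 genes have close neighbours whose ends fall in the same window. Ash2l, a subunit of histone H3K4 methyltransferase complexes, has an end 18 bp from Star, and Lsm1 has an end 4499 bp from it. Sf3a2, a splicing factor gene, lies 318 bp from Amh, Jsrp1 lies 815 bp from it on the other side, and Obsl1 lies 591 bp from Inha. None of the 26 lists, the knockout included, had a hotspot centre in the windows of Star, Amh or Inha.

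For Sox9, Wt1 and Gata4, the genes with a hotspot in 5 or more lists, the most alike gene on another chromosome was found by Pearson correlation of the strongest percentile over the 26 lists, with 0 where there was none. For Sox9 it was Tpm1, a tropomyosin gene on chromosome 9 (r = 0.81, hotspots in 16 lists, 14 of them lists with a Sox9 hotspot). For Wt1 it was Lgi3 on chromosome 14 (r = 0.93, 10 lists, 8 of them with a Wt1 hotspot). For Gata4 it was Capg, an actin capping gene on chromosome 6 (r = 0.94, 7 lists, 5 of them with a Gata4 hotspot). The lists share parents and zeros, and each gene is the best of all, so the values are descriptions with no test.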
